A study of Mus musculus with 28 samples.

Results

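Nascent transcription was compared between control cultures of mouse forebrain whose activity had been raised with bicuculline (BIC) and control cultures given vehicle. The comparison rests on 4 of the 28 samples of the series, the Bru-seq groups shCtrl_BIC (2 libraries) and shCtrl_Veh (2 libraries). The genes described are those whose mean normalized count reached 50 in the comparison table the authors deposited, which were 12333 of the 22919 genes in that table. All 4 cultures came from cortices and hippocampi of CD1 embryos at embryonic day 18, pooled from groups of embryos with matched sex ratios, and held neurons, astrocytes and oligodendrocyte precursor cells. All 4 also carried a lentivirus with a control shRNA, given on day in vitro 14. On day 17 they received either 20 µM BIC or water for 4 hours, with 2 mM bromouridine present during the last 20 minutes. The same treatment in cultures with an shRNA against Rai1 (shRai1), and the sodium channel blocker tetrodotoxin (TTX, 1 µM) in control cultures, are used below for reference.

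Bicuculline blocks GABA-A receptors, the chloride channels through which most fast inhibition in the forebrain acts. Without that inhibition, cultured networks fire in synchronous bursts, and calcium entering through NMDA receptors and L-type channels drives kinase and phosphatase pathways that reach the nucleus. Early-response transcription factors such as Fos, Npas4 and the Egr family are usually transcribed within minutes of such a stimulus, and genes for secreted factors, synaptic regulators and channels follow over hours. Bru-seq captures RNA labelled with bromouridine during a short window, so the values report RNA made near the end of the treatment and not the RNA accumulated over it.

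The authors' files gave 1 log2 change per gene with its standard error (SE), and 1 pooled FPKM per condition with a lower and an upper bound. No value per library was used, so every statement on spread rests on the SE that the authors' DESeq2 model estimated from libraries labelled as biological replicates. The log2 changes compare RNA per library: fewer cells of a type and less RNA per cell cannot be told apart in such bulk samples. Depth per library is unknown. Each log2 change, SE and adjusted p below comes from the authors' deposited table, and each FPKM from their FPKM table, except the test of a difference between arms. The mean normalized count, averaged over all libraries of the fit, had a median of 469 among the 12333 genes, and the median SE was 0.135. Some genes share 1 interval with others in the FPKM table, and their FPKM is uncertain. Of the 12333 genes, 9855 had an interval of their own. The FPKM changed less than the log2 changes state for many genes. Of 5363 genes called (adjusted p under 0.05) that had an FPKM, 1673 (31.2%) had a log2 ratio of FPKM, with 0.5 added to both, that was under 50% of the log2 change or of opposite sign, and 504 (9.4%) were of opposite sign. The labelled cell types were present in vehicle. The authors' FPKM summed to 1022 over 18 neuron markers and to 812 over the 15 of 19 astrocyte markers that reached a count of 50. It summed to 179 over the 8 of 19 oligodendrocyte lineage markers that did. Of the microglia markers 3 of 14 reached it, and of the vascular and fibroblast markers 1 of 18.

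BIC changed nascent transcription of a large share of genes, in both directions about equally. Of the 12333 genes, 5378 (43.6%) reached significance at an adjusted p of 0.05 in the authors' deposited table; these are called below. Of them, 2649 (21.5%) were higher and 2729 (22.1%) were lower under BIC. Most changes were small. The median log2 change was 0.61 among the genes called higher and -0.56 among those called lower, in the authors' deposited table, and 984 of the former and 1104 of the latter moved by less than 0.5. A change of at least 1 on the log2 scale was reached by 526 higher genes (4.26%) and 312 lower genes (2.53%). The upper tail was longer: 70 genes rose by at least 2 and 17 fell by at least 2, while 11 rose by at least 3 and only Adora2a, among the 12333 genes, fell by that much. The median over all 12333 genes was -0.04. Just above the count of 50, Triqk changed by -0.18 and 2700070H01Rik by 0.44, and just below it Gm6307 changed by -0.04 and Il4ra by -0.57. None of these was called in the authors' deposited table. Tac1, also just below, rose by 1.11 (SE 0.30) there with an adjusted p under 0.05.

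**Figure D1:**
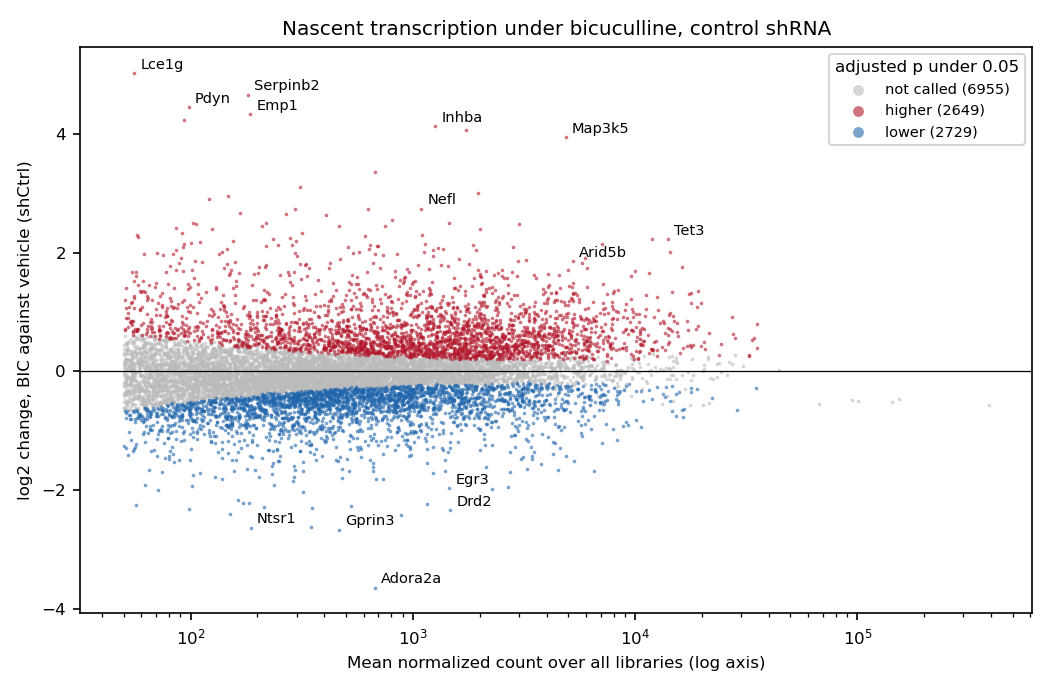
Each point is 1 of 12333 genes; the horizontal axis is the mean normalized count over all libraries (log axis) and the vertical axis the log2 change under BIC in control cultures. Red points are the 2649 genes called higher and blue points the 2729 called lower; rises reach 5.03 (Lce1g) and falls reach -3.65 (Adora2a).

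The 4 steepest rises belonged to genes with at most 1.51 FPKM in vehicle. Lce1g, a member of the late cornified envelope family of skin barrier proteins, was listed at 0 FPKM in vehicle and at 34.2 FPKM in BIC (bounds 23.8 to 44.6). Its fitted log2 change of 5.03 (SE 0.357) in the authors' deposited table depends on how the model treats near-absent counts, and its place above the count minimum rests on treated libraries. Serpinb2 encodes plasminogen activator inhibitor 2, an intracellular serpin. Its FPKM was 0.165 in vehicle (bounds 0 to 0.659) and 13.5 in BIC (bounds 9.42 to 17.7), and its log2 change in the authors' deposited table was 4.66 (SE 0.385). Pdyn, the precursor of the opioid peptide dynorphin, went from 0.483 to 5.05 FPKM and rose by 4.46 (SE 0.294) in the authors' deposited table. Emp1, an epithelial membrane protein, went from 1.51 to 13.8 FPKM and rose by 4.34 (SE 0.249) in the same table of the authors. For these last 3 genes the bounds of the 2 conditions did not overlap. Their mean counts also include treated libraries. Their place above the count minimum may thus rest on those libraries too, as may that of other rises from low vehicle levels. In the files' coordinates (mm9, per the submitters' processing notes) Serpinb2 lies on chromosome 1 from 109408000 to 109422177 and Pdyn on chromosome 2 from 129512285 to 129525674.

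Upstream sequence was examined for these rises, since AP-1 and CREB sites are classical elements of activity-regulated promoters. The 250 bases before the start were taken from RefSeq (GRCm38.p6) for 11 of the 15 largest rises and searched on both strands. TGANTCA, the AP-1 motif, was found in 3 of the 11. Counted per gene in the same way, it was in 0 of the 10 matched genes of the 15 largest falls and in 526 of the 9815 matched among the 12333; per promoter it was in 6.75% of all 32851 of the table. The cyclic AMP response element TGACGTCA was in 0 of the 11 rises, 0 of the 10 falls and 318 of the 9815 genes, and its core TGACG in 1, 1 and 3054 of them. The TATA motif TATAAA was in 2, 1 and 759 of the same sets. Of all 32851 promoters, 1.55% held TGACGTCA, 17.8% TGACG and 12.4% TATAAA. EGR motifs (GCGTGGGCG) and SRF CArG boxes were in 0 of the 11, in 0 of the 10, and in 118 and 133 of the 9815 genes. Per promoter they were in 0.536% and 1.47% of all 32851. Promoters were matched for 73.3% of the 15 rises, 66.7% of the 15 falls and 79.6% of the 12333 genes, so a comparison of these counts is void and none is drawn. The stretches around the motif in the 3 genes are shown because they are the matches among the largest rises; capitals mark the motif, and each stretch runs 5′ to 3′ on the strand of its gene. A match describes the letters and not a bound site. They lie at chr1:107511269-107511395 (plus strand, motif 94 bases before the start) for Serpinb2, at chr6:135362726-135362852 and chr6:135362846-135362930 (plus strand, 145 and 25 bases) for Emp1, and at chr5:30945594-30945720 (minus strand, 180 bases) for Cgref1.
Serpinb2: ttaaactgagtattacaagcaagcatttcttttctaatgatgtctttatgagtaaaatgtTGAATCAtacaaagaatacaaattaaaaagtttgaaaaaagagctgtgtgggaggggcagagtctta
Emp1, upstream motif: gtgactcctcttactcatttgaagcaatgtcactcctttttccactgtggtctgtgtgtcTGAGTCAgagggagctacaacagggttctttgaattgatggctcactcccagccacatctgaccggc
Emp1, motif nearer the start: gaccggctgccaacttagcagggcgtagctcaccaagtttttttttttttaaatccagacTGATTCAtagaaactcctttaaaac
Cgref1: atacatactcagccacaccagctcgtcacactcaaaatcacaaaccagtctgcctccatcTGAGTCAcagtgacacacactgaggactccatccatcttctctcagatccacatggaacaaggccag

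Further strong rises began from vehicle levels between 1.61 FPKM (Sp7) and 59.6 FPKM (Nefl). Map3k5 encodes ASK1, a kinase at the head of the p38 and JNK stress pathways, and had the smallest p among all 12333 genes. It went from 2.82 FPKM (bounds 1.82 to 3.81) to 21.3 FPKM (bounds 16.4 to 26.2), with a log2 change of 3.94 (SE 0.107) and an adjusted p of 7.42e-296 in the authors' deposited table. Inhba, the subunit of which activin A is made, went from 6.18 to 82 FPKM and rose by 4.13 (SE 0.24) in the authors' deposited table, a 17.6-fold change. Ism1, a secreted protein of the isthmin family, went from 1.9 to 28.2 FPKM and rose by 4.07 (SE 0.24). Acan, the aggrecan core protein of perineuronal nets, went from 4.34 to 28.3 FPKM and rose by 3.01 (SE 0.153). The kinase Pim1 rose by 3.10 (SE 0.19) in the authors' deposited table, and the bone transcription factor Sp7 by 2.96 (SE 0.228). Nefl, the light neurofilament subunit of axons, had the highest level of the group. It went from 59.6 FPKM (bounds 45.8 to 73.3) to 325 FPKM (bounds 249 to 401) and rose by 2.74 (SE 0.114). Its partner Nefm rose by 2.73 (SE 0.186) in the authors' deposited table, with an interval shared with 1 other gene. In this set the bounds of vehicle and BIC did not overlap.

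Other large or precise rises filled out the list. Tet3, an enzyme that oxidises 5-methylcytosine, rose by 2.23 (SE 0.0863) in the authors' deposited table, with an adjusted p of 6.28e-143 and an interval shared with 1 other gene. Arid5b, a DNA-binding cofactor, rose by 1.85 (SE 0.0764) with an adjusted p of 2.90e-126. The interferon-inducible gene Ifi202b rose by 4.24 (SE 0.283) and the cytoskeletal adaptor Pdlim1 by 2.90 (SE 0.217) in the authors' deposited table; the bounds of Pdlim1 overlapped. Cgref1 rose by 3.36 (SE 0.136), but its FPKM interval is shared among 22 genes and its bounds overlapped, so its level is uncertain. Among the most abundant genes past 1, Pde10a, a phosphodiesterase of striatal neurons, rose by 1.15 (SE 0.14), from 21.6 to 29.3 FPKM with overlapping bounds, and the kinase Sik3 by 1.33 (SE 0.0824) in the authors' deposited table. The microtubule-linked kinase Dclk1 rose by 1.14 (SE 0.118) in the same table. The Notch ligand Dner had a log2 change of 1.09 (SE 0.0906), but its interval is shared and its FPKM was 48 in vehicle and 50.9 in BIC, so the rise is uncertain.

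**Figure D2:**
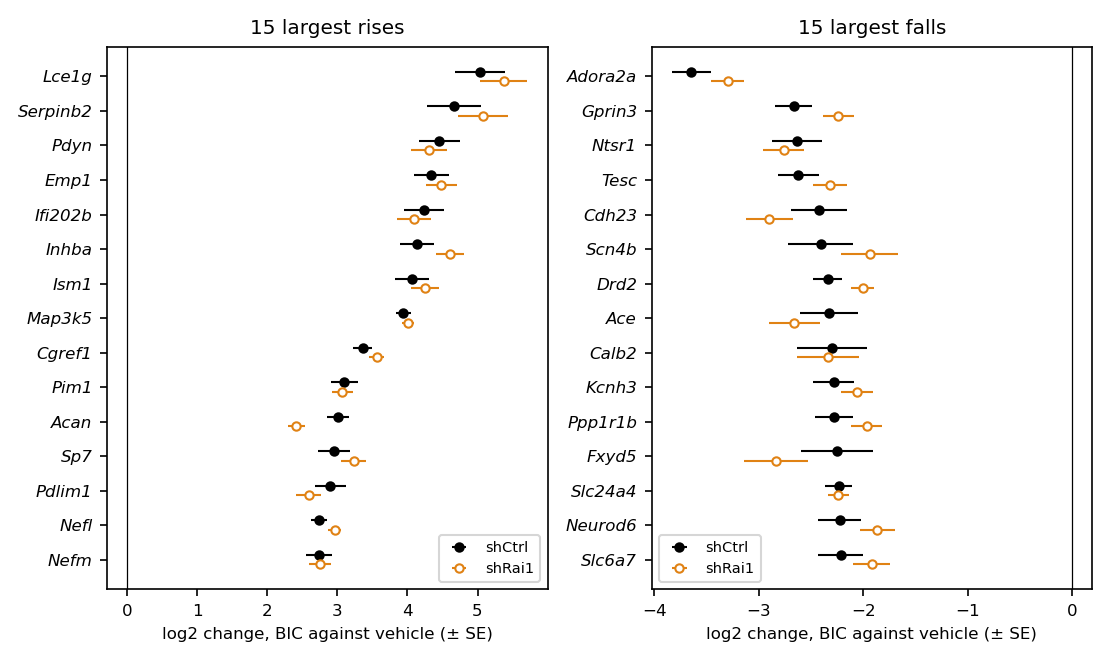
Log2 change under BIC (± SE, as the authors deposited it) of the 15 largest rises and the 15 largest falls in control cultures (filled) and of the same genes in shRai1 cultures (open). All 30 genes have the same direction in both arms; the largest fall is Adora2a, at -3.65 in control cultures.

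The largest falls included receptors, ion channels and transporters. Adora2a, the adenosine receptor of indirect-pathway striatal neurons, had 22.7 FPKM in vehicle (bounds 16.8 to 28.6) and 0.713 FPKM in BIC (bounds 0.036 to 1.39). Its log2 change in the authors' deposited table was -3.65 (SE 0.187), which is 12.5-fold lower. Drd2, the dopamine D2 receptor, went from 8.0 to 2.57 FPKM and changed by -2.34 (SE 0.137) in the authors' deposited table. Gprin3, a G-protein regulated inducer of neurite outgrowth, went from 3.13 to 0.773 FPKM and changed by -2.67 (SE 0.181). Ntsr1, the neurotensin receptor of deep-layer cortical neurons, went from 3.43 to 0.867 FPKM and changed by -2.63 (SE 0.236). For these 4 receptors and regulators the bounds of the 2 conditions did not overlap.

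Tesc, the calcium-binding protein tescalcin, changed by -2.62 (SE 0.197) in the authors' deposited table. Scn4b, a beta subunit of voltage-gated sodium channels, changed by -2.41 (SE 0.308), from 2.82 to 0.191 FPKM. Slc24a4, a potassium-dependent sodium and calcium exchanger, changed by -2.24 (SE 0.128) in the authors' deposited table. Neurod6, a transcription factor of excitatory cortical neurons, fell from 30.8 to 6.62 FPKM, with a log2 change of -2.22 (SE 0.206). These 4 genes had bounds that did not overlap. The proline transporter Slc6a7 changed by -2.22 (SE 0.216) and calretinin (Calb2) by -2.30 (SE 0.339) in the authors' deposited table, while their FPKM went from 5.96 to 2.82 and from 13.8 to 8.88 with overlapping bounds. Ace, Kcnh3, Ppp1r1b and Fxyd5 were also among the 15 largest falls, between -2.33 and -2.25 in the authors' deposited table, and share their FPKM interval with other genes. Cdh23, a cadherin of hair cells, changed by -2.43 (SE 0.268), but its interval is shared by 3 genes and its FPKM was 1.47 in vehicle and 1.37 in BIC, so the fall is uncertain. Among falls with a small SE, the sialyltransferase St6galnac3 changed by -1.96 (SE 0.11) and the homeobox factor Pbx3 by -1.69 (SE 0.0991) in the authors' deposited table. Their FPKM went from 1.47 to 0.317 and from 6.98 to 3.42, with overlapping bounds for both. Abundant genes that fell by more than 1 were the transcription factor Foxp1 (-1.16), the guidance ligand Slit3 (-1.20, shared interval), the adenylyl cyclase Adcy5 (-1.68) and the protease Adamts17 (-1.09), per the authors' deposited table. The FPKM of Foxp1 (9.25 and 7.59) and of Adamts17 (7.42 and 5.67) fell less, with overlapping bounds.

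**Figure D3:**
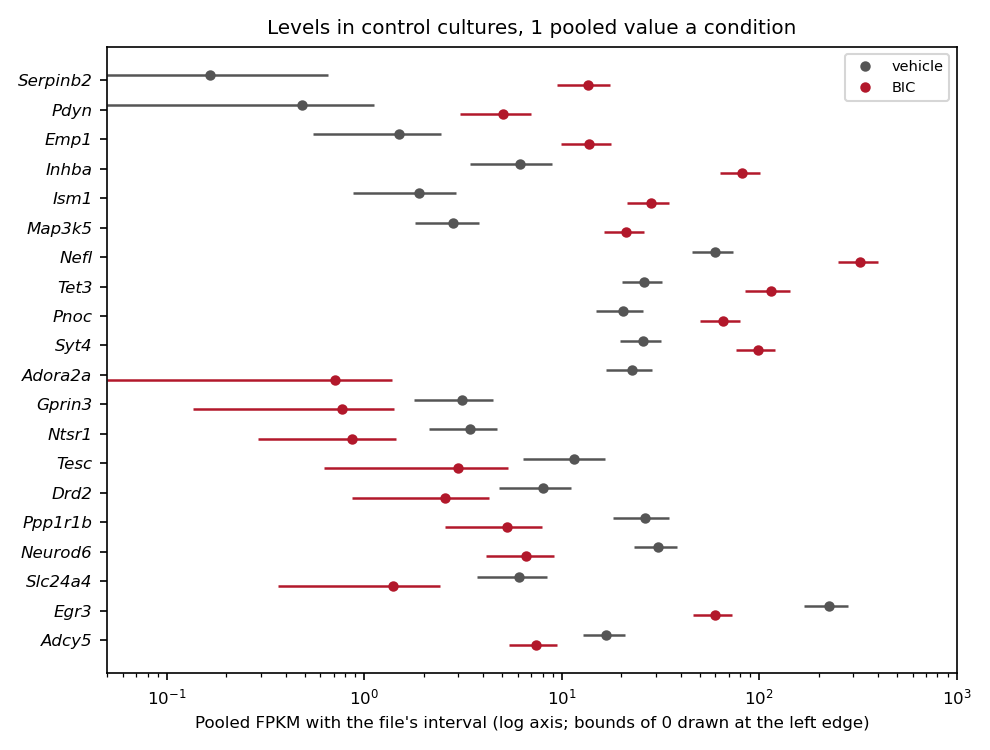
Pooled FPKM of the authors in vehicle (grey) and BIC (red) in control cultures, on a log axis, for 10 genes that rose and 10 that fell; horizontal lines are the bounds given in the file, and bounds of 0 are drawn at the left edge. Nefl goes from 59.6 to 325 and Adora2a from 22.7 to 0.713.

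Pooled FPKM and log2 changes are separate values in the authors' files and were compared gene by gene. Bounds of the 2 conditions lay apart for 763 of 12311 genes with an FPKM (6.2%). They lay apart for 285 of the 523 genes higher by at least 1 that had an FPKM, and for 121 of the 312 lower by at least 1. The FPKM ratio had the opposite sign for 10 of the former and 13 of the latter. Across the genes, which are not independent replicates and share libraries in both measures, the 2 measures correlated with r = 0.773.

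Genes were then grouped by function, in 30 lists of 878 genes in all, 30 of them in more than 1 list. Among the 28 lists with at least 8 members above the count of 50, the groups with the largest shares called higher were amino acid and integrated stress response genes, secreted ligands, plasticity effectors, early-response factors, growth-arrest genes and feedback regulators of MAP kinase. Cholesterol synthesis and genes of striatal projection neurons had the largest shares called lower. These are counts beside the background of 21.5% and 22.1%, with no test of a list.

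**Figure D4:**
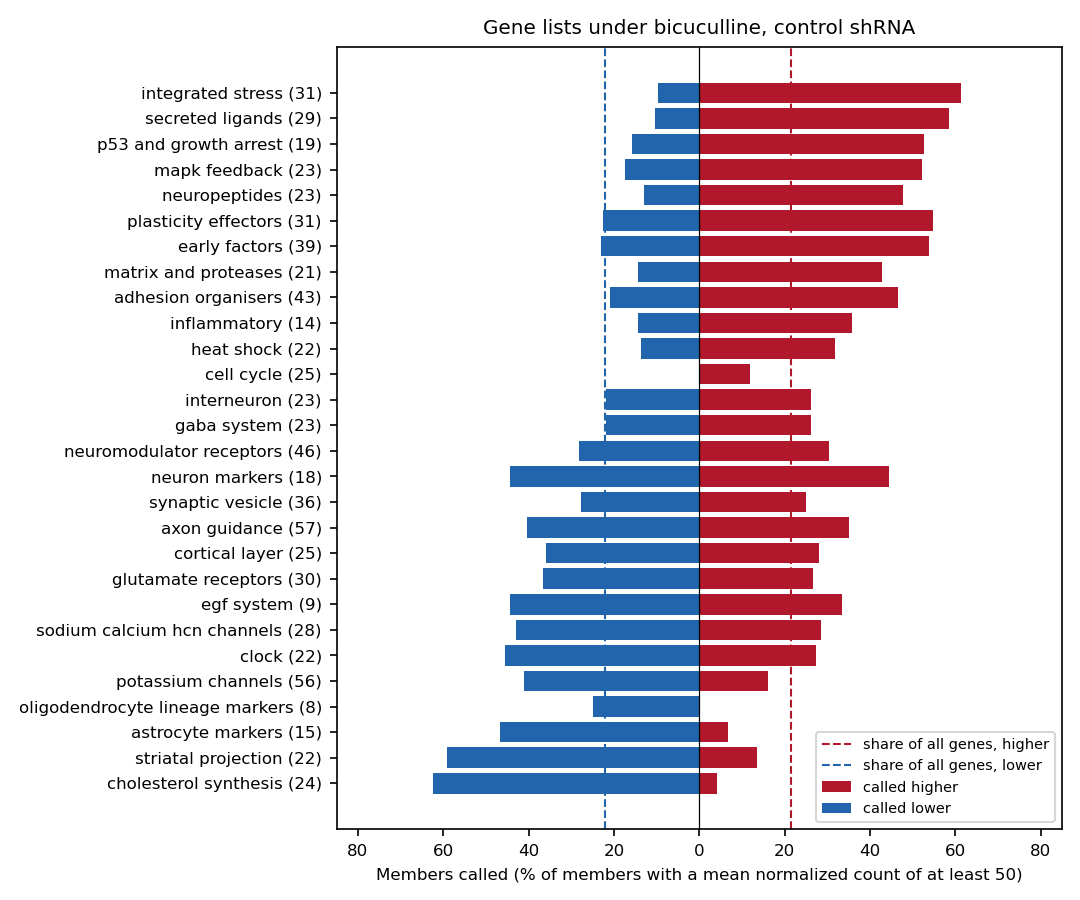
Share of each list's members (count of at least 50, number in brackets) called higher (red, right) and lower (blue, left) under BIC in control cultures; dashed lines are the shares among all 12333 genes, 21.5% and 22.1%. The bars run from integrated stress (61.3% higher) at the top to cholesterol synthesis (62.5% lower) at the bottom.

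Early-response factors were called higher more often than all genes after 4 hours of BIC, and lower about as often. Of 39 members, 21 (53.8%) were called higher and 9 (23.1%) lower, against 21.5% and 22.1% of all genes, with a median log2 change of 0.49, against -0.04 over all genes. Klf4, a zinc-finger factor, rose by 2.41 (SE 0.247) in the authors' deposited table, from 3.8 to 13.8 FPKM. Csrnp1, a cysteine- and serine-rich nuclear factor, rose by 2.40 (SE 0.136), from 22.2 to 129 FPKM. Atf3, a stress-induced member of the ATF family, rose by 1.80 (SE 0.276), from 16 to 69.1 FPKM. The 9 falling members included 3 Egr genes, Srf and the Egr corepressor Nab2. Egr3 went from 225 to 59.6 FPKM, with a log2 change of -1.97 (SE 0.215), and Egr2 changed by -1.49 (SE 0.184) in the authors' deposited table. Egr1 went from 1009 to 581 FPKM and changed by -0.91 (SE 0.146), with bounds of 665 to 1352 and 421 to 740.4 that overlapped. Klf10 changed by -1.07 (SE 0.172) and Srf itself by -1.02 (SE 0.124), with Srf sharing an interval. Ier2 (-0.70), Nab2 (-0.66), Btg2 (-0.55) and Bhlhe40 (-0.27) completed the group in the authors' deposited table. Centred on the median, 7 of the 9 were called lower, without Btg2 and Bhlhe40, and 6 were at an adjusted p of 0.01. In shRai1 cultures Ier2, Btg2 and Bhlhe40 were not called, at -0.38, 0.05 and -0.11 in the authors' deposited table. The canonical markers of activity, singled out after their values were seen, were already high in vehicle. Npas4 had 928 FPKM in vehicle and 1382 in BIC, with a log2 change of 0.54 (SE 0.256) that was not called in the authors' deposited table. Fos had 569 and 839.6 FPKM, with 0.42 (SE 0.254), and Fosb had 338 and 547 FPKM, with 0.49 (SE 0.31), neither called.

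Genes for secreted factors were mostly called higher. Of 29 ligands of the growth factor, TGF-beta and pentraxin families, 17 (58.6%) were called higher and 3 lower, with a median of 0.62. Bmp2, a bone morphogenetic protein, rose by 2.33 (SE 0.257) in the authors' deposited table, from 1.22 to 7.62 FPKM. Cyr61, a matricellular protein, rose by 1.73 (SE 0.245), from 87.2 to 347 FPKM. Bdnf, the neurotrophin of excitatory synapses, named after its value was seen, rose by 1.41 (SE 0.149), from 24.7 to 72.1 FPKM. Inhba, described above, led this group as well, whereas Inhbb, which encodes a related activin subunit, fell by 0.77 (SE 0.194) in the authors' deposited table. Ntf3 and Bmp3 were the other members that fell, by 0.75 (SE 0.284) and 0.97 (SE 0.213).

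Neuropeptide genes and the proteins of their secretory granules were also called higher more often than lower. Of 23 members, 11 were called higher, 3 lower and 9 not, with a median of 0.35. Adcyap1, the precursor of PACAP, rose by 2.66 (SE 0.193) in the authors' deposited table, from 5.36 to 29.6 FPKM. Grp, gastrin-releasing peptide, rose by 2.45 (SE 0.202). The FPKM of Grp went from 7.98 to 18.3 with overlapping bounds, so the size of its rise is uncertain. Pcsk1, the convertase that cleaves many propeptides, rose by 2.14 (SE 0.137), from 5.94 to 27.9 FPKM. Scg2, the granule protein secretogranin 2, rose by 1.75 (SE 0.146), from 40.8 to 125 FPKM. Among peptides of inhibitory interneurons, Sst, Npy and Vip were not called, at 0.00 (SE 0.198), -0.13 (SE 0.248) and 0.35 (SE 0.275) in the authors' deposited table. Cort and Crh, under the count of 50 with means of 45 and 5.02 and named after their values were seen, rose there by 1.30 (SE 0.308) and 1.33 (SE 0.416), with adjusted p-values of 0.000154 and 0.00562. Scg5, Chgb and Nxph4 were the members that fell, by 0.45, 0.59 and 1.06.

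Feedback inhibitors of MAP kinase and growth-arrest genes were called higher in about equal shares. Of 23 feedback genes 12 were called higher and 4 lower, with a median of 0.27. Dusp1, a phosphatase that inactivates MAP kinases, rose by 1.63 (SE 0.241) in the authors' deposited table, from 157 to 536 FPKM. Dusp4, a nuclear phosphatase of the same family, rose by 1.02 (SE 0.135) and Spry3, a Sprouty inhibitor, by 1.04 (SE 0.254). Rasal1, a Ras GTPase-activating protein, changed by -1.74 (SE 0.179). Of 19 genes of p53 and growth arrest, 10 were called higher and 3 lower, with a median of 0.23. The DNA repair and demethylation factors Gadd45b and Gadd45g led them, with 1.88 (SE 0.161) and 1.78 (SE 0.141) in the authors' deposited table; Gadd45g went from 233 to 765 FPKM. The cyclin Ccng2 rose by 0.82 (SE 0.14) and the kinase Plk3 by 0.78 (SE 0.179).

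Regulators of synaptic strength were mostly called higher. Of 31 plasticity effectors 17 were called higher and 7 lower, with a median of 0.30. After Pim1, the G-protein regulator Rgs7 rose by 2.01 (SE 0.144) and the kinase Sik2, whose interval is shared, by 1.74 (SE 0.123) in the authors' deposited table. The FPKM of Rgs7 went from 11.8 to 21, a log2 ratio of 0.81, so the size of its rise is uncertain. Plk2, a kinase that acts in synaptic down-scaling, rose by 1.63 (SE 0.104), from 166 to 447 FPKM. Arc, the regulator of AMPA receptor endocytosis, named after its value was seen, rose by 0.78 (SE 0.249), from 413 to 783 FPKM. The falling members were components of the postsynaptic density and its kinase: Camk2n1, Camk2a, Homer2, Camk2b, Dlg4, Shank1 and Shank3, between -0.77 and -0.26 in the authors' deposited table.

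Matrix and protease genes had 9 members called higher and 3 lower of 21, with a median of 0.24; 17 further listed genes lay under the count of 50. Beside Serpinb2 and Emp1, thrombospondin 1 (Thbs1) rose by 2.73 (SE 0.13) in the authors' deposited table, from 6.47 to 40 FPKM. Ptgs2, the inducible cyclooxygenase, rose by 2.28 (SE 0.156), from 14.2 to 77.7 FPKM. The EGF system had too few members for a pattern, with 3 higher and 4 lower of 9. Its ligands Nrg1 and Hbegf rose by 1.03 (SE 0.239) and 0.94 (SE 0.172) in the authors' deposited table, while the receptor Egfr fell by 0.67 (SE 0.142). Nrg2 changed by -1.47 (SE 0.096), with an interval shared with another gene.

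Glutamate receptor genes were called in both directions. Of 30 members 8 were higher and 11 lower, with a median of 0.03. The falls reached further. Grm4, a presynaptic group III metabotropic receptor, changed by -1.41 (SE 0.139) in the authors' deposited table, from 6.86 to 2.61 FPKM. Grik3, a kainate receptor subunit with a shared interval, changed by -1.21 (SE 0.0903). The NMDA receptor subunit Grin2d changed by -1.19 (SE 0.218) and the group II receptor Grm2 by -1.16 (SE 0.23). The bounds of Grik3, Grin2d and Grm2 overlapped. The FPKM of Grik3 went from 13 to 10 and that of Grin2d from 2.66 to 1.83, so the size of these falls is uncertain. Among AMPA and NMDA subunits, Gria1 changed by -0.00 (SE 0.115), Grin1 by -0.17 (SE 0.0869) and Grin2b by 0.10 (SE 0.117), none called. Gria2 was called higher, at 0.55 (SE 0.128) in the authors' deposited table. These subunits were picked after their values were seen.

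Of 23 genes of GABA signalling, 6 were called higher and 5 lower, near the shares of all genes. Gad2, which makes GABA, rose by 1.47 (SE 0.105) in the authors' deposited table, from 46.8 to 86.7 FPKM, with an interval shared with another gene. Gabra2 and Gabrg1, subunits of the receptor that bicuculline blocks, rose by 1.38 (SE 0.144) and 0.84 (SE 0.181) in the authors' deposited table, with overlapping bounds. Called falls included the astrocytic GABA transporter Slc6a11 (-0.55), the GABA-B receptor subunit Gabbr2 (-0.47) and the chloride extruder Slc12a5 (-0.28). They were named after their values were seen, and their bounds also overlapped. The lowest log2 change in the list was -1.10, and 1 member was called lower by at least 1.

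Receptors for neuromodulators held some of the largest changes of both signs. Of 46 members 14 were called higher and 13 lower, and 8 rose and 9 fell by at least 1. Tacr3, the neurokinin B receptor, rose by 2.65 (SE 0.17) in the authors' deposited table, from 0.206 to 3.1 FPKM. Other receptors past 1 on the rising side, named after their values were seen, were Hrh1 (2.11), Sstr1 (1.76), Htr2a (1.73), Adra1a (1.57), Adra1b (1.29), Htr2c (1.07, shared interval) and Npy1r (1.04) in the authors' deposited table. On the falling side, beside Adora2a, Ntsr1 and Drd2, were Hrh3 (-1.91), Oprl1 (-1.78), Chrm1 (-1.67), Oprd1 (-1.54), Htr1d (-1.10) and Htr5b (-1.05). The bounds of Htr2c, Npy1r, Htr1d and Htr5b overlapped.

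Among potassium channel genes the calls were mostly lower. Of 56 members 9 were called higher and 23 (41.1%) lower, with a median of -0.16. Beside Kcnh3, the modifying subunits Kcng2 and Kcnv1 changed by -1.60 (SE 0.185) and -1.49 (SE 0.232) in the authors' deposited table. The FPKM of Kcng2 was 2.85 in vehicle and 2.24 in BIC, with overlapping bounds, so the size of its fall is uncertain. Kcnj6, the GIRK2 subunit of G-protein gated inward rectifiers, rose by 1.43 (SE 0.11), from 13.6 to 33.1 FPKM. Among 28 sodium, calcium and HCN channel genes 8 were called higher and 12 lower, with a median of -0.29. Of these, 2 rose by at least 1, up to 1.69, and 4 fell by at least 1, down to -2.41. The calcium channel subunits Cacnb3 and Cacna2d2 changed by -1.43 (SE 0.196) and -1.26 (SE 0.124) in the authors' deposited table. The FPKM of Cacna2d2 was 6.91 in vehicle and 6.77 in BIC, so its fall is uncertain. The pore-forming sodium channel genes Scn2a1, Scn3a and Scn8a were not called, at -0.18, 0.06 and 0.05 in the authors' deposited table.

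Genes of striatal projection neurons had one of the largest shares of falls. Of 22 members 13 (59.1%) were called lower and 3 higher, with a median of -0.89, and 10 fell by at least 1. Some of these genes are also transcribed in cortical and hippocampal neurons. In addition to Adora2a, Gprin3, Drd2 and Ppp1r1b (DARPP-32), the adenylyl cyclase Adcy5 went from 16.9 to 7.44 FPKM. The 3 members called higher were Pdyn, which rose by 4.46 as given above, the phosphodiesterase Pde10a (1.15) and the phosphatase Ptpn5 (0.78) in the authors' deposited table. The bounds of Pde10a and Ptpn5 overlapped, and the FPKM of Ptpn5, whose interval is shared, was 23.1 in vehicle and 24 in BIC. The enkephalin gene Penk was not called at 0.29 (SE 0.139). Tac1, the precursor of substance P, lay just under the count of 50 and rose by 1.11 (SE 0.30) with an adjusted p of 0.00101 in the authors' deposited table. The D1 receptor gene, listed as Drd1a, was not called either, at 0.37 (SE 0.261). The 2 dopamine receptor genes therefore had different calls, and that difference was not tested.

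Markers of cortical layers and of interneurons showed no common direction. Of 25 layer genes 7 were called higher and 9 lower, with a median of -0.14. Rorb, a layer 4 nuclear receptor, rose by 1.32 (SE 0.211) in the authors' deposited table, with overlapping bounds. Emx1, a dorsal forebrain homeobox factor, changed by -1.18 (SE 0.207). Of 23 interneuron genes 6 were called higher and 5 lower, with a median of 0.00. Lhx6, a transcription factor of interneurons from the medial ganglionic eminence, changed by -0.85 (SE 0.129) in the authors' deposited table, from 14.9 to 11.8 FPKM with overlapping bounds.

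Axon guidance genes were called in both directions. Of 57 members 20 (35.1%) were higher and 23 (40.4%) lower, with a median of -0.04. The ephrin Efna5 and the semaphorin Sema3e rose by 1.41 (SE 0.116) and 1.47 (SE 0.144) in the authors' deposited table, both with overlapping bounds; the FPKM of Sema3e went from 5.88 to 7.46. Plxnd1, the receptor of Sema3e, changed by -1.66 (SE 0.166), from 4.68 to 1.62 FPKM. Sema4a changed by -1.78 (SE 0.174), with a shared interval. Of 43 synaptic adhesion organisers 20 rose and 9 fell, with a median of 0.26. Pcdh17, a protocadherin, rose by 2.13 (SE 0.135) in the authors' deposited table, with a shared interval. The latrophilin Lphn3 had a log2 change of 1.36 (SE 0.20), but its FPKM was 9.36 in vehicle and 10.5 in BIC, so the rise is uncertain. The synaptic organiser Cbln2 rose by 1.35 (SE 0.261), while Flrt1, a ligand of latrophilins, changed by -1.51 (SE 0.167).

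Among 36 genes of synaptic vesicles 9 were called higher and 10 lower, with a median of -0.05. Syt4, a synaptotagmin of dense-core vesicles, rose by 1.94 (SE 0.106) in the authors' deposited table, from 25.7 to 98.4 FPKM. The vesicle protein Sv2c rose by 1.48 (SE 0.128). The vesicular glutamate transporters had opposite signs: Slc17a6 rose by 1.03 (SE 0.141) and Slc17a7 fell by 0.62 (SE 0.137) in the authors' deposited table, the latter with a shared interval. Syn3 changed by -0.83 (SE 0.11), but its interval is shared and its FPKM was 10.6 in vehicle and 12.2 in BIC.

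Cholesterol synthesis had the largest share of falls among the 30 lists. Of 24 members 15 (62.5%) were called lower and 1 higher, with a median of -0.47. The falls were moderate. Dhcr7, a late enzyme of the pathway, changed by -0.86 (SE 0.104) in the authors' deposited table, from 27.6 to 13.9 FPKM. Fdps, which makes farnesyl diphosphate, changed by -0.95 (SE 0.149), and Lss, lanosterol synthase, by -1.06 (SE 0.136) with a shared interval. The bounds of Fdps and Lss overlapped. The FPKM of Fdps went from 41.2 to 30.5, so the size of its fall is uncertain. Tm7sf2, a sterol reductase, changed by -0.83 (SE 0.228), also with a shared interval, from 15 to 11.8 FPKM. Sqle, squalene epoxidase, was the member that rose, by 0.36 (SE 0.113). Astrocytes are a main site of this pathway in brain, and of 15 astrocyte markers 7 were called lower, 1 higher and 7 not. The summed FPKM of the 15 was 812 in vehicle and 607 in BIC. FPKM was lower in BIC also for each of the 7 not called. Slc1a3, for example, had 47.8 FPKM in vehicle and 34.3 in BIC, with a log2 change of -0.03. The log2 changes therefore do not bear out the full drop of the sum. The part of astrocytes in the falls of the cholesterol genes was not tested.

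Genes of the integrated stress response had the largest share of rises among the 28 lists with at least 8 members. Of 31 members 19 (61.3%) were called higher and 3 lower, with a median of 0.41. The leading members were tRNA synthetases, which charge tRNAs for protein synthesis: Cars rose by 1.05 (SE 0.0935), Nars by 0.97 (SE 0.0902), Tars by 0.95 (SE 0.12) and Iars by 0.84 (SE 0.0828) in the authors' deposited table. Cars shares its interval. The bounds of all 4 overlapped between conditions. Atf4, the factor that drives this response, was not called at 0.16 (SE 0.119), and its target Ddit3, with a shared interval, was called lower at -0.46 (SE 0.169) in the authors' deposited table.

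Markers of the labelled cell types were read for the same contrast. Neuron markers were called higher in 8 and lower in 8 of 18 cases, with a median of 0.01, and their summed FPKM was 1022 in vehicle and 1238 in BIC. Without Nefl, the sum over the other 17 was 963 in vehicle and 913 in BIC. Among astrocyte markers, Aldoc changed by -0.74 (SE 0.171), Apoe by -0.55 (SE 0.161) and Aqp4, the water channel, by -0.48 (SE 0.173) in the authors' deposited table, while the transcription factor Sox9 rose by 0.62 (SE 0.129). Gfap, Slc1a2 and Slc1a3 were not called, at -0.17, 0.04 and -0.03. In shRai1 cultures Aldoc, Apoe and Aqp4 were not called, at -0.20, -0.24 and -0.31. Of the 15 astrocyte markers 5 were called lower and 2 higher there. Of 8 oligodendrocyte lineage markers 2 were called lower in control cultures. Olig1 changed by -0.53 (SE 0.144), and Mbp by -0.49 (SE 0.108) against an FPKM of 18.5 in vehicle and 26.2 in BIC, so its direction is uncertain. The microglial fractalkine receptor Cx3cr1 rose by 0.92 (SE 0.233) and the lysosomal Cd68 by 0.75 (SE 0.191) in the authors' deposited table, while the microglia markers Tyrobp, C1qa, Trem2 and Tmem119 had mean counts of at most 1.17. The vascular and fibroblast marker above the minimum, Pdgfrb, was not called at -0.43 (SE 0.202). The part of any change in cell make-up in the results above was not tested.

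The share of calls differed by the level and by the length of genes. The share called higher rose from 11% among 1555 genes with a count of 50 to 100 to 47.0% among 617 genes at 5000 or more, after a low of 10.1% at 100 to 200. The share called lower was 12.5% and 17.8% in the first and last bins and highest between them, at 26.6% for counts of 200 to 500. The median log2 change was -0.07 in the first bin, lowest at -0.12 from 100 to 500 and 0.21 in the last, while the median SE fell from 0.246 to 0.0986. Because the count includes treated libraries, genes were also ordered by FPKM in vehicle multiplied by interval length, in place of a count in vehicle alone. Length therefore enters this order, and the order does not separate level from length. In 5 groups of equal size by that product, the share called higher went from 12.7% in the lowest to 34.3% in the highest. The median log2 change went from -0.12 to 0.07 in the same order. By interval length, the share called higher was 10.9% below 10 kb and 37.2% at 400 kb or more. Longer genes also collected more counts, with medians of 175 and 4370.4 in those bins. Among genes with a count of 500 to 1000 the share called higher ran from 17.8% in the shortest bin to 25.0% of 28 genes in the longest. It was 35.3% of 68 genes at 200 to 400 kb. The share called lower in these bins lay between 19.8% and 34.0%. Their median log2 changes lay between -0.11 and -0.01, with no steady order by length. All of these are descriptions across genes, with no test.

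**Figure D5:**
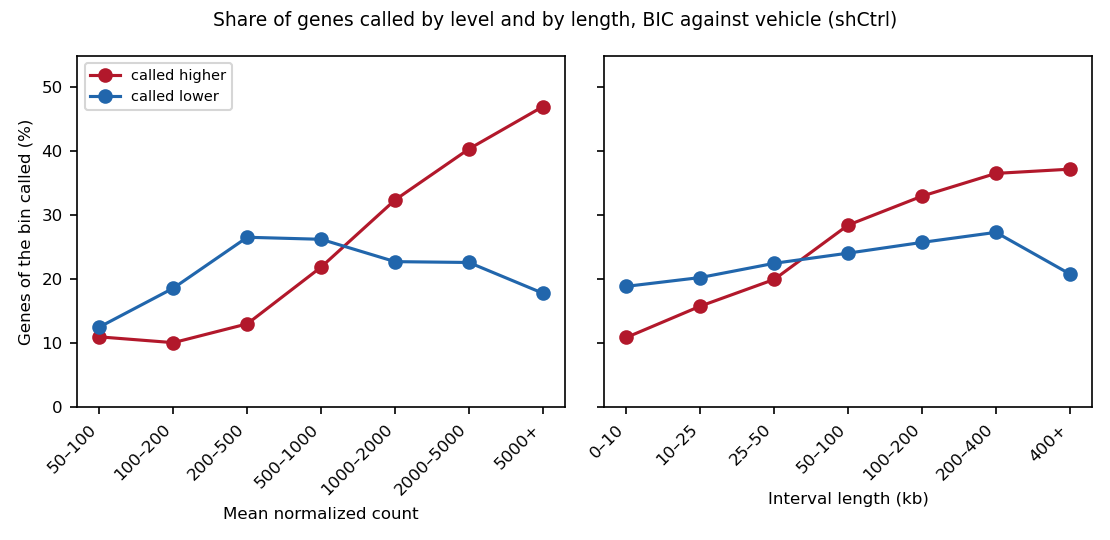
Share of genes called higher (red) and lower (blue) under BIC in control cultures, by mean normalized count (left) and by length of the gene's interval in kb (right). The share called higher climbs from 11% to 47.0% with count and from 10.9% to 37.2% with length.

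The same drug was given to shRai1 cultures, whose 6 libraries (3 with BIC and 3 with vehicle) are separate from those described here. There 3315 genes (26.9%) were called higher and 3552 (28.8%) lower among the 12333. Of the 2649 genes called higher in control cultures, 2503 (94.5%) were also called higher in shRai1, which is 75.5% of the calls there. Of the 2729 called lower, 2425 (88.9%) were also called lower, which is 68.3% of the calls there. Among genes past 1 these numbers were 525 of 526 and 309 of 312. No gene called in control cultures was called the other way. The log2 changes in the 2 arms correlated with r = 0.946 across the 12333 genes, which are not independent. In the authors' deposited tables Map3k5 rose by 3.94 in control and 4.01 in shRai1 cultures, Inhba by 4.13 and 4.61, and Adora2a changed by -3.65 and -3.30.

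A difference between the arms was tested directly, as the change in shRai1 minus that in shCtrl, with a two-sided Wald test and Benjamini-Hochberg adjustment over the 12333 genes. It passed for 4 genes (0.0324%). An unadjusted p under 0.05 was found for 480 of the 12333, fewer than that threshold passes on average where no gene differs. All 4 differences were positive. Scg2 rose by 1.75 in control and 2.60 in shRai1 cultures in the authors' deposited tables, a difference of 0.85 (SE 0.189, adjusted p 0.0208). Syt4 rose by 1.94 and 2.60, a difference of 0.66 (SE 0.136, adjusted p 0.0105). Both proteins belong to dense-core vesicles. Ifrd1, a transcriptional co-regulator, rose by 1.82 and 2.36, a difference of 0.54 (SE 0.118, adjusted p 0.0208), with a shared interval. Zdbf2, an imprinted gene, changed by -0.14 and 0.51, a difference of 0.65 (SE 0.135, adjusted p 0.0105). It shares its interval, and its FPKM in control cultures went from 5.2 to 11.3 although the log2 change there was not called. The direction of the difference for Zdbf2 is therefore uncertain. For all 4 genes the direction of the comparison between arms also rests on the arm labels. In the authors' FPKM table the columns named for the knockdown did not follow their names: over 12311 genes the log2 ratio of the column named for BIC to that named for no drug had r = 0.267 with the deposited log2 change under BIC in shRai1, against r = 0.835 for the column named for TTX over that named for BIC. In control cultures the same check gave r = 0.773. These knockdown columns were not used for any other value, and whether the labels of the comparison tables are affected was not tested.

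Silenced cultures give another level for each gene. TTX and BIC were compared with the same vehicle libraries, so the values are set side by side and not related to each other. For Scn4b the log2 change was -2.41 under BIC and 2.58 (SE 0.193) under TTX in the authors' deposited tables, and its FPKM was 0.191 in BIC, 2.82 in vehicle and 8.66 in TTX. Tesc had -2.62 under BIC and 1.5 (SE 0.128) under TTX, with 2.97, 11.5 and 15.9 FPKM in the same order. Acan had 3.01 and -1.94 (SE 0.151), with 28.3, 4.34 and 1.56 FPKM. Scn4b and Tesc had their highest FPKM in TTX and their lowest in BIC, and Acan the reverse. Map3k5 had 3.94 under BIC but -0.37 (SE 0.101) under TTX, with 21.3, 2.82 and 1.62 FPKM. Tet3 had 2.23 and 0.18 (SE 0.0774), with 114, 26.2 and 32.4 FPKM. Adora2a had -3.65 and 0.52 (SE 0.133), with 0.713, 22.7 and 28.6 FPKM. In Map3k5, Tet3 and Adora2a the FPKM in TTX lay nearer to that in vehicle than to that in BIC.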

How the data were processed

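Bru-seq reads were single-end and 50 bp long, per the labels' protocols, and TopHat2 2.1.0, Bowtie2 2.2.6, DESeq2 and mm9 are named in the submitters' processing notes; how genes were counted is not given in the sources used here. The authors deposited, per the file headers, a mean normalized count per gene, which is a signal averaged over libraries after scaling, a log2 fold change with its standard error, a Wald score and its p-value, raw and adjusted. The authors also deposited 1 pooled FPKM with bounds per condition. The deposited p-values followed the normal distribution of the score to within 8.82e-10, and the adjusted ones the Benjamini-Hochberg method. The deposited log2 changes are shrunken for genes of low count: the largest in size among tested genes with a mean under 1 was 0.61. Of 21192 genes tested, 4500 had no adjusted p.

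The plan allowed for a count model fitted to values per library; with summaries only, the authors' deposited DESeq2 results (Wald test, Benjamini-Hochberg adjustment) were used, calls having an adjusted p under 0.05. Computed here, with Python 3.11.15 and scipy 1.17.1, were counts, medians, FPKM comparisons, promoter motifs and the difference between arms. Alternatives were other thresholds, count minimums, adjustments and pseudocounts (0.5 and 0.1 FPKM), centring, and the shRai1 arm. The members and lists were chosen with earlier results of these data known. Named genes were the 15 largest rises and falls, the 5 smallest adjusted p-values in each direction, the 5 most abundant genes past 1 in each direction, at most 4 called members per list with the largest change, early factors that fell, genes differing between arms and genes next to the count of 50; other genes named were picked after their values were seen. Some genes the rule named are not reported here. RAI1 ChIP-seq was left out, as it does not bear on this contrast.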

Additional observations from a re-analysis of the deposited data

Results flagged for a closer look

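The response to BIC differed between shRai1 and control cultures for 4 of 12333 genes by the Wald test of the difference itself. The log2 change in shRai1 minus that in control cultures was 0.85 for Scg2, 0.66 for Syt4, 0.65 for Zdbf2 and 0.54 for Ifrd1. At an adjusted p of 0.1 the test gave 5 genes, and at 0.01 it gave 0. The 480 genes at an unadjusted p under 0.05 were fewer than that threshold passes on average where no gene differs. Zdbf2 and Ifrd1 share their intervals with another gene. In control cultures the FPKM of Zdbf2 went from 5.2 to 11.3 although its log2 change there was -0.14. The direction of the difference for Zdbf2 is therefore uncertain. The arms had 4 and 6 libraries.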

How the results depend on the processing

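The counts moved within 1.5 times under the alternatives run, except where given. Higher calls ranged from 2126 to 2940 and lower calls from 2033 to 3183 over thresholds, adjustments, count minimums, centring and leaving out genes with shared intervals. The order of the 2 counts did not hold: lower calls were more numerous at 2729 against 2649, but fewer at an adjusted p of 0.01 (2242 higher, 2033 lower), at a count minimum of 200 (2291 and 2189) and when centred on the median (2930 and 2329). Higher calls past 1 ranged from 396 to 611 and lower ones from 211 to 345. At an adjusted p of 0.01 the lower calls became 2 for MAP kinase feedback, 1 for the integrated stress response and 1 for inflammatory genes, the higher calls became 1 for cell cycle genes, and the count of differences between arms became 0. With adjustment over genes with a count of at least 50, 1 cell cycle gene was called lower. Of 139 named genes, 2 (Btg2 and Bhlhe40) lost their call when centred, and 8 called in control cultures were not called in the shRai1 arm, among them Olig1 (0.094) and Btg2 (0.046), whose sign differed there. The log2 ratio of FPKM reversed Syn3 (0.19 with a pseudocount of 0.5 and 0.20 with 0.1) and Mbp (0.49 and 0.50), and the cause was not tested. Of the 139, it moved 98 with 0.5 and 93 with 0.1 by more than their SE. Of 136 called, 114 had a smaller or opposite ratio and 32 one under 50% of the log2 change. With 2 libraries a group and no values per library used, leaving out a library was not run, and depth limits cannot be stated. No paired analysis was possible because the 2 groups share 1 replicate number and no values per library were used.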

Other observations

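Genes of the circadian clock were called in both directions, with 6 higher and 10 lower of 22 and a median of -0.22. Dbp, an output factor of the clock, changed by -1.67 (SE 0.207) in the authors' deposited table, with a shared interval, and Hlf, of the same PAR bZIP family, by -1.16 (SE 0.123). Nfil3, a repressor that binds the sites these factors use, rose by 1.28 (SE 0.126), from 22.7 to 72.1 FPKM. Tef, the remaining PAR bZIP gene, named after its value was seen, changed by -0.88 (SE 0.11) in the authors' deposited table. Heat-shock genes were called higher in 7 and lower in 3 of 22 cases; Hsf2, a heat-shock factor, rose by 1.26 (SE 0.112) and the chaperone Hsph1 by 1.25 (SE 0.0939), while Hspa8 was not called at -0.03 (SE 0.12). Of 14 inflammatory genes 5 were higher and 2 lower. The NF-kappa-B subunit Rel rose by 1.45 (SE 0.156), from 1.42 to 7.3 FPKM, and Nfkb1 by 1.05 (SE 0.0904). Socs2, a cytokine signalling inhibitor, changed by -1.37 (SE 0.214) in the authors' deposited table. The FPKM of Nfkb1 went from 7.04 to 9.28 and that of Socs2 from 18 to 12.3. The bounds of Nfkb1 and Socs2 overlapped, so the size of their changes is uncertain. Of 25 cell cycle genes 3 were called higher in the authors' deposited table, Ccnd1 with 0.35 (SE 0.12), Tyms with 0.34 (SE 0.0909) and Ccnd2 with 0.22 (SE 0.087).

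Some listed genes lay under the mean count of 50 and are outside the counts above; those named here were picked after their values were seen. Areg, the EGF receptor ligand amphiregulin, had a mean count of 37, was listed at 0 FPKM in vehicle and at 5.23 FPKM in BIC, and had an adjusted p of 5.48e-23 in the authors' deposited table. Cartpt, the precursor of the CART peptide, was listed at 0 FPKM in vehicle and at 3.41 in BIC. Timp1, an inhibitor of metalloproteinases, rose by 2.05 (SE 0.394) and the collagenase Mmp13 by 1.79 (SE 0.358) in the authors' deposited table, with mean counts of 17 and 23.2. In all, 372 genes under 50 had an adjusted p under 0.05.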
